A study of Mus musculus with 19 samples.

Results

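Differentiated myotubes labelled Glud1-deficient, written here as KO-labelled, were compared with differentiated myotubes labelled wild type (WT) at 48 h of culture. The members were the libraries titled Glud1KO_diffMyotubes, 2 in number, and those titled WT_diffMyotubes, 3 in number, which together are 5 of the 19 libraries of the series. All were messenger RNA libraries from primary myoblasts, the mononucleated muscle precursors, taken from hind-limb muscle of mice and differentiated in culture. The series also holds dividing myoblasts at 24 h and fused myotubes at 72 h under both labels, and 48 h is described as the close of the differentiation step, before fusion. The labels give the genotype only as WT or Glud1KO. The strain, age and sex of the mice, the allele and the way Glud1 was removed are not given in the sources used here. The names of the deposited files read KO for the WT-labelled libraries and KOT for the KO-labelled ones. The labels were followed, and the meaning of those letters is not stated. The labels number biological replicates but do not tie them to separate animals or cultures. The p-values and SE thus measure a spread between libraries that may be technical. That spread was taken from a fit of all 19 libraries.

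GLUD1 is the mitochondrial glutamate dehydrogenase, which turns glutamate into 2-oxoglutarate and ammonium and so feeds the citric acid cycle. Myoblasts that differentiate leave the cell cycle, switch on the transcription factor myogenin (Myog) under MYOD1, lay down the contractile apparatus and fuse through the membrane proteins myomaker (Mymk) and myomixer (Mymx). Matrix, non-muscle cytoskeleton and cell cycle genes are turned down along the way, and mitochondria expand. In bulk RNA of this kind, fewer cells of a type and less RNA per cell cannot be told apart.

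The 48 h libraries held 21586966 to 29896572 estimated counts in WT and 19875856 to 20878532 in KO-labelled samples. Levels are given as CPM, a gene's share of the library's counts scaled by TMM, which does not correct for gene length. Genes with a Benjamini-Hochberg adjusted p under 0.05 in edgeR's quasi-likelihood test, over the 15123 genes tested, are named as called. Markers of fibroblasts, adipocytes, endothelium and glia were low or at 0 in the 5 libraries. The fibroblast markers Dpt and Lum and the leukocyte marker Tyrobp were at 0, and the 12 fibroblast markers, 4 of which passed the filter, summed to 2.5 to 2.89 CPM in WT and 2.62 to 2.67 in KO-labelled libraries. The 10 leukocyte markers summed to 18.2 to 21.6 CPM in WT and to 27.4 and 30.7 in KO-labelled libraries. Most of that sum was the integrin gene Itgam, with 15.8 CPM in WT and 25.3 in KO-labelled libraries, while Ptprc, Csf1r and Adgre1 held at most 7 counts in any library. The 9 pericyte and smooth muscle markers summed to 5478 to 6040 CPM in WT and to 4977 and 5555 CPM in KO-labelled libraries. Most of that sum was in genes that myogenic cells also express, such as Acta2, while Kcnj8 was at 0.

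At 48 h the total Glud1 RNA overlapped between the labels. Glud1 (ENSMUSG00000021794.16, chr14:34310727-34345265, plus strand, GRCm38) had 112, 102 and 104 CPM in WT replicates 1 to 3, and 103 and 96.6 CPM in KO-labelled replicates 1 and 2. On the log2 scale the fold change was -0.087 ± 0.0473 (SE, edgeR adjusted p 0.193). With 3 against 2 libraries the exact permutation test, two-sided, cannot go below 0.1, and it gave p = 0.4. With an offset for effective transcript length the change was -0.31 (edgeR adjusted p 0.000245) and with scaling by library size only -0.14 (edgeR adjusted p 0.0403), and over all 14 alternatives the adjusted p ran from 0.000245 to 0.897. Of its transcripts the longest, ENSMUST00000022322, had 48.7, 41.9 and 43.2 TPM in WT and 41.8 and 37.9 TPM in KO-labelled libraries. A shorter one, ENSMUST00000159784, had 29.0, 42.2 and 40.6 TPM in WT and 22 and 20.3 TPM in KO-labelled libraries. For both the groups did not overlap, as in 46.5% of genes tested at the gene level. For the longest the margin was narrow (41.9 TPM in WT against 41.8 TPM in KO-labelled libraries). Single transcripts were not tested. Directions below rest on the labels.

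In this comparison 3810 genes were called, 25.2% of those tested. Of these 1671 were higher in KO-labelled libraries, 11.0% of the genes tested, and 2139 were lower, 14.1%. Larger changes were mostly falls, with 389 genes lower and 58 higher by at least 2-fold. The 2 groups did not overlap in 7037 genes, 46.5% of those tested. The balance of directions moved with the scaling. Of all calls 43.9% were rises, against 27% with library size only and 66.3% once each library's trend with GC content and length was removed. The offset for effective length left 2149 calls, and 2594 and 2642 were left without KO-labelled replicate 1 or 2.

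**Figure D1:**
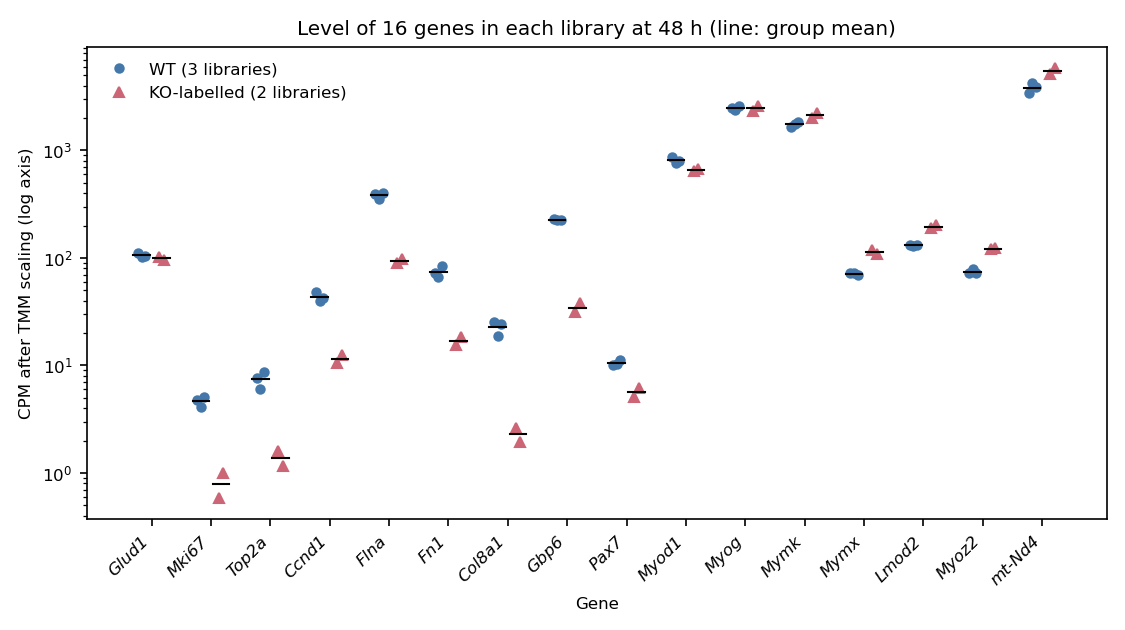
CPM of 16 genes (log axis) in each library at 48 h, with WT libraries as circles, KO-labelled libraries as triangles and the group mean as a line. Cell cycle, matrix and cytoskeleton genes such as Mki67, Flna and Col8a1 lie lower in both KO-labelled libraries, Mymx, Lmod2 and mt-Nd4 lie higher, and Glud1 and Myog overlap.

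The 48 h difference was then set against the course that genes take in WT culture. This course was read from WT fused myotubes at 72 h against WT myoblasts at 24 h, which share no library with the 48 h comparison. Among 3891 genes with a net fall of at least 2-fold in WT, 1245 (32%) were lower and 51 (1.31%) higher in KO-labelled libraries at 48 h, and the median log2 fold change was -0.25. Among 3740 genes with a net rise, 965 (25.8%) were higher and 163 (4.36%) lower, with a median of 0.14. The remaining 7492 genes held 655 rises and 731 falls, with a median of 0.005. In this class there were 1553 rises and 467 falls with the GC and length trend removed, and 397 and 923 with library size only. Over all genes the median was -0.012. Over all genes tested 14.1% were called lower and 11.0% higher. With a net change of at least 4-fold the medians were -0.46 over 2016 falling and 0.18 over 2045 rising genes.

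**Figure D2:**
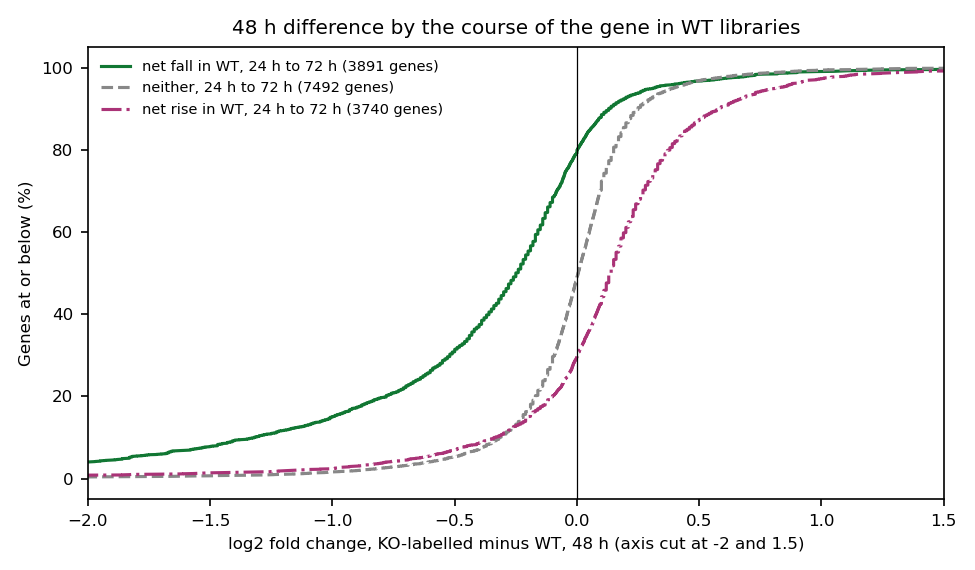
Share of genes (%) at or below each log2 fold change of KO-labelled against WT libraries at 48 h, for genes with a net fall, a net rise or neither between WT myoblasts and WT fused myotubes. The curve of the 3891 falling genes lies to the left of the remaining 7492, and around 0 and above that of the 3740 rising genes lies to the right.

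Genes of the mitotic machinery had the lowest median change of the 42 gene lists examined. All 76 listed genes passed the filter on low counts. Of these 54 were lower in KO-labelled libraries (71.1%, against 14.1% of all genes) and none was higher (against 11.0%). The median log2 fold change was -1.12. The list summed to 311, 286 and 311 CPM in WT and to 202 in each KO-labelled library, against 6548 to 6713 CPM in WT myoblasts. Both groups at 48 h were thus far below the myoblast level. With the effective-length offset 33 of the falls were called.

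Mki67, the proliferation marker Ki-67 (chr7:135689784-135716361, minus strand), was at 4.79, 4.09 and 5.07 CPM in the WT libraries against 0.588 and 0.996 CPM in the KO-labelled ones. The highest KO-labelled value was below the lowest WT value by a wide margin, a change of -2.55 ± 0.265 on the log2 scale (SE, edgeR adjusted p 4.35e-08). Top2a, the topoisomerase that untangles replicated chromosomes, was at 7.64, 6.1 and 8.66 CPM in the WT libraries against 1.6 and 1.15 CPM in the KO-labelled ones (-2.45 ± 0.191). The kinetochore genes Knl1 (-3.06 ± 0.506) and Cenpe (-2.61 ± 0.385) fell by more, from levels near 1 and 2 CPM. In all 4 genes every KO-labelled library lay below every WT library, where 46.5% of all genes tested had groups that did not overlap. The mitotic kinase gene Cdk1 fell from a mean of 6.27 to 3.33 CPM and the cyclin gene Ccnb1 from 2.71 to 0.977 CPM. Among members not called were the ubiquitin-conjugating gene Ube2c, with means of 6.51 and 5.51 CPM, and Incenp of the chromosomal passenger complex, with 4.96 and 4.4 CPM.

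Entry into the cycle and DNA replication were less uniform. Ccnd1, which encodes cyclin D1, the partner of CDK4 and CDK6, was at 48.6, 39.4 and 42.3 CPM in the WT libraries against 10.5 and 12.5 CPM in the KO-labelled ones. It fell by 1.91 ± 0.0985 on the log2 scale (SE, edgeR adjusted p 8.13e-14). The groups did not overlap, as in 46.5% of all genes tested. Ccnd2 (-0.62 ± 0.0496), Cdk6 (-0.83 ± 0.0803) and Cdk4 (-0.41 ± 0.0581) fell as well. Cdkn1a, which encodes the cell cycle inhibitor p21, had means of 3076 CPM in WT and 3308 in KO-labelled libraries and was not called, although the DESeq2 test and the removal of the length and GC trend called it. The inhibitor genes Cdkn2b (0.29) and Cdkn2d (0.29) rose, and both lost their calls without KO-labelled replicate 2. Of 59 DNA replication genes 15 fell (25.4%, against 14.1% of all genes) and 4 rose (6.78%, against 11.0%), with a median of -0.18. The falls numbered 8 under the effective-length offset and 8 without KO-labelled replicate 1, and the rises 1 under that offset and 2 without KO-labelled replicate 2 or WT replicate 2. Mcm3 (-0.85), Mcm6 (-0.99) and the DNA ligase gene Lig1 (-1.24 ± 0.256) fell, whereas the ribonucleotide reductase gene Rrm1 (0.22) and E2f8 (0.32) rose and Pcna (18.7 and 17.9 CPM) was not called. Under the effective-length offset the calls of Mcm3 and Rrm1 were lost, that of Mcm3 also without KO-labelled replicate 1. The replication list as a whole summed to 771 to 786 CPM in WT and to 772 and 795 CPM in KO-labelled libraries, and the groups overlapped.

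Promoters are shown for the 3 mitosis genes called lower that had the highest WT level among those whose promoter holds the sequence TTTGAA. This is the core of the cell cycle homology region, through which many mitosis genes are repressed in resting cells. The runs are the 250 bases before the RefSeq start site in GRCm38.p6, read 5′ to 3′ on the gene's strand, with TTTGAA on either strand in capitals.
Ncapd2 (chr6:125191587-125191836, minus strand): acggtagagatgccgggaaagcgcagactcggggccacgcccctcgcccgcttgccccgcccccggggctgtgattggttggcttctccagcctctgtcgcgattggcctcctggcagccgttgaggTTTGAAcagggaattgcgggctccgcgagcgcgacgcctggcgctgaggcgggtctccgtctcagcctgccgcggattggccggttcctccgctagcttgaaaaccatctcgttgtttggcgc
Ect2 (chr3:27153879-27154128, minus strand): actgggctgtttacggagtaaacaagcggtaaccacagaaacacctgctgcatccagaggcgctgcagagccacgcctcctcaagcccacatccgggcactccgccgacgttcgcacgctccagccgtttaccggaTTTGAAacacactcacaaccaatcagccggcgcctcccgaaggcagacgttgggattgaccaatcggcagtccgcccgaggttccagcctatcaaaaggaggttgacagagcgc
Top2a (chr11:99024190-99024439, minus strand): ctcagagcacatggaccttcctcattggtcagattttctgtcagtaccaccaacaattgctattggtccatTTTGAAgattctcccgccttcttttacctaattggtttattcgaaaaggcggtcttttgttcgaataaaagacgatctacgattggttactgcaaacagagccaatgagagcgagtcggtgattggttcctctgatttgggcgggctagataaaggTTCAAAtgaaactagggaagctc
In the same 250-base windows, TTTGAA or its reverse complement was in 25 of 68 promoters of 62 matched mitosis genes (36.8%), against 5252 of 32851 promoters (16%) in the whole table. CCAAT, the box bound by NF-Y, was in 46 of these 68 (67.6%), against 33.8% of all promoters on either strand. In the replication list 9 of 58 promoters held TTTGAA (15.5%) and 33 held CCAAT (56.9%). The named genes encode a condensin subunit (Ncapd2, 12 CPM in WT and 8.18 in KO-labelled libraries), a cytokinesis exchange factor (Ect2, 7.53 and 5.61 CPM) and the topoisomerase described above. Ncapd2 and Ect2 lost their calls under the effective-length offset, and Top2a kept its call in all 14 alternatives. A match describes the letters in the window and is no evidence of binding.

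Extracellular matrix genes fell widely. Of 55 listed genes 43 passed the filter, and their median log2 fold change was -0.99. Of these 27 were lower (62.8%, against 14.1% of all genes) and 2 higher (4.65%, against 11.0%). The list summed to 5787, 5920 and 6437 CPM in WT and to 4504 and 4781 CPM in KO-labelled libraries. The sums did not overlap, as in 46.5% of single genes tested. Col8a1, a short-chain collagen (chr16:57624258-57754737, minus strand), was at 25.2, 18.8 and 24.5 CPM in the WT libraries against 2.62 and 1.94 CPM in the KO-labelled ones. This fall of 3.32 ± 0.145 on the log2 scale was the largest among called genes that reached a mean of 10 CPM. Fn1, which encodes fibronectin, was at 71.9, 66 and 84.2 CPM in the WT libraries against 15.4 and 18.4 CPM in the KO-labelled ones (-2.13 ± 0.123, edgeR adjusted p 9.15e-13). The basement membrane genes Col4a1 (-1.5 ± 0.0717) and Lamb1 (-1.5 ± 0.0739), the adhesive glycoprotein genes Tnc (-2.75 ± 0.183) and Thbs1 (-1.53 ± 0.064) and the collagen cross-linking enzyme gene Lox (-1.66 ± 0.114) fell with them. Lox peaked at 48 h in WT, with 7.7 CPM in WT myoblasts, 24.6, 21.8 and 23.1 CPM in WT at 48 h and 10 CPM in WT fused myotubes. Members not called included Col1a2 (6.39 and 5.35 CPM), and the larger of the rises was Col7a1 (0.58), whose call was lost under the effective-length offset. The perlecan gene Hspg2, at -0.37 ± 0.106, lost its call without KO-labelled replicate 1, KO-labelled replicate 2 or WT replicate 3, and with the length and GC trend removed. Of the fibroblast markers Ly6a was called lower (edgeR adjusted p 0.00105), with 0.711, 0.305 and 0.493 CPM in WT and 0 and 0.0524 CPM in KO-labelled libraries, at most 15 counts in any library. Of 8 pericyte and smooth muscle markers tested 3 were lower, among them Acta2 and Cspg4 (-1.26), and Myh11 was higher (from 0.549 to 1.32 CPM). Without any 1 of the 5 libraries the call of Myh11 was lost, and that of Cspg4 without KO-labelled replicate 2 or WT replicate 3. The part of these markers in the matrix falls was not tested.

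The non-muscle cytoskeleton changed in the same direction. Of 40 genes tested 30 were lower (75%, against 14.1% of all genes) and 1 was higher (2.5%, against 11.0%), with a median of -0.34. Flna, the actin cross-linker filamin A (chrX:74223461-74249820, minus strand), was at 391, 354 and 401 CPM in the WT libraries against 89.3 and 98.4 CPM in the KO-labelled ones. It fell by 2.02 ± 0.0706 on the log2 scale (edgeR adjusted p 3.84e-17). The cytoplasmic actin genes Actg1 (-1.11 ± 0.0556) and Actb (-0.84) fell, as did non-muscle myosin Myh9 (-1.01) and its light chain Myl9 (-1.22 ± 0.078). Actin genes are close paralogs between which estimated counts can be exchanged. Acta2, smooth muscle actin, was at 2732, 2567 and 2854 CPM in the WT libraries against 1914 and 2140 CPM in the KO-labelled ones, and Vim, the intermediate filament gene vimentin, was at 2530, 2269 and 2486 against 1681 and 1914 CPM. Both were among the largest falls in absolute level and the groups did not overlap, as in 46.5% of all genes tested. The targets of YAP and SRF signalling Ccn2 (-1.47 ± 0.173) and Ccn1 (-0.78) fell. The member that rose was the actin monomer binder Tmsb10 (0.4).

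**Figure D3:**
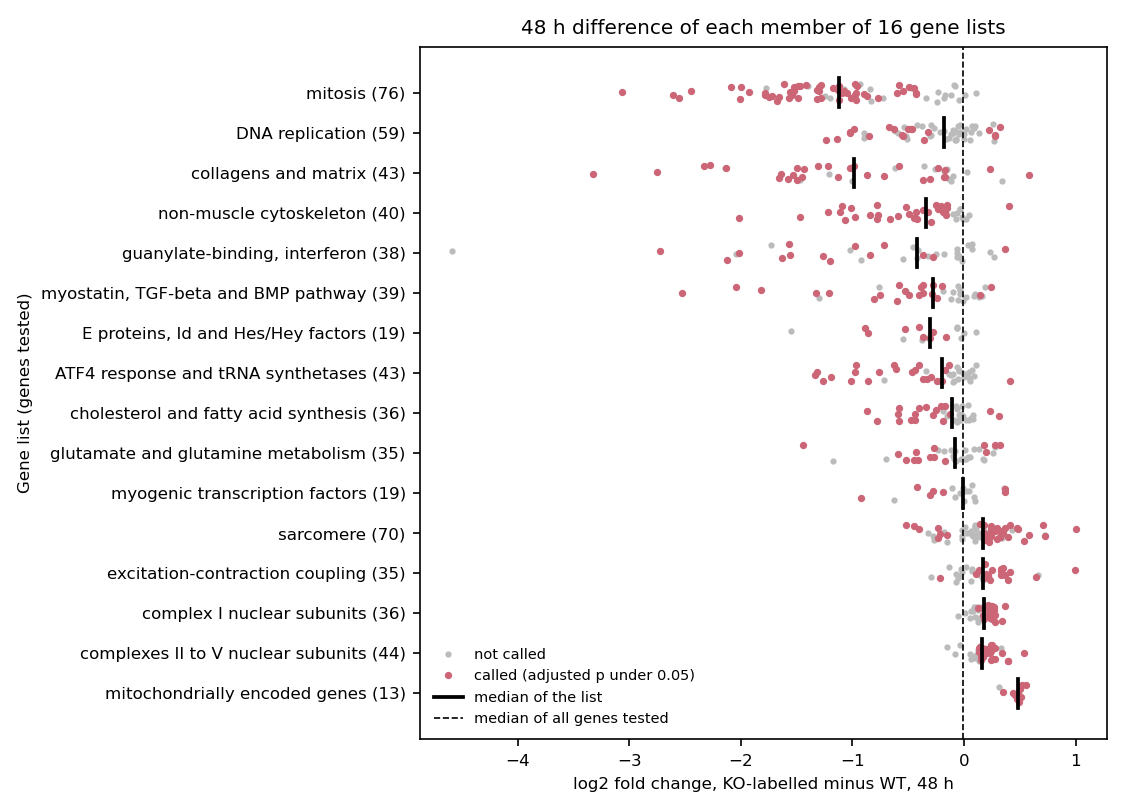
Log2 fold change of KO-labelled against WT libraries at 48 h for each tested member of 16 gene lists, with called genes in red, the median of each list as a bar and the median of all genes (-0.012) as a dashed line. Medians run from -1.12 for mitosis to 0.48 for mitochondrially encoded genes.

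Of 19 myogenic transcription factors tested 2 were higher (10.5%, against 11.0% of all genes) and 5 lower (26.3%, against 14.1%), with 3 lower without KO-labelled replicate 1 and 5 higher and 4 lower once the length and GC trend was removed. The list summed to 7144 to 7270 CPM in WT and to 7100 and 7219 CPM in KO-labelled libraries. Myog was at 2494, 2364 and 2578 CPM in the WT libraries against 2334 and 2593 CPM in the KO-labelled ones, so the groups overlapped (-0.009 ± 0.0715, edgeR adjusted p 0.951, from -0.088 to 0.067 over 14 alternatives). Myod1 was at 869, 770 and 804 CPM in the WT libraries against 645 and 668 CPM in the KO-labelled ones (-0.31 ± 0.0564, edgeR adjusted p 0.000155). Pax7, the satellite cell factor, was at 10.2, 10.4 and 11.3 against 5.08 and 6.18 CPM (-0.92 ± 0.136). Mef2a fell (-0.42 ± 0.0439), whereas its relative Mef2c (0.37 ± 0.0575) and the TEAD family gene Tead4 (0.37 ± 0.0587) rose. Myf5 was at -0.19 ± 0.0565, with a call that was lost without KO-labelled replicate 1, KO-labelled replicate 2 or WT replicate 1 and with the length and GC trend removed. Of 19 E proteins, Id and Hes/Hey factors 8 fell (42.1%, against 14.1% of all genes) and none rose (against 11.0%). With the length and GC trend removed 2 rose, and without WT replicate 2 1 rose. The falls included Id3 (-0.53 ± 0.0595) and Id2 (-0.4 ± 0.079), whose products hold bHLH factors off DNA, Hes1 (-0.89 ± 0.102), an effector of Notch, and Snai2 (-0.86 ± 0.125). Tcf3, which encodes the E protein partner of MYOD1, fell too (-0.28), with a call that was lost without KO-labelled replicate 1.

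The fusion proteins were higher. Mymx was at 71.8, 72.1 and 69.8 CPM in the WT libraries against 119 and 108 CPM in the KO-labelled ones, a rise of 0.67 ± 0.0697 on the log2 scale (edgeR adjusted p 4.39e-08). Mymk was at 1659, 1754 and 1828 CPM in the WT libraries against 1999 and 2229 CPM in the KO-labelled ones (0.27 ± 0.0612, edgeR adjusted p 0.00129), and its call was lost without KO-labelled replicate 2 (adjusted p over alternatives up to 0.0714). Neither pair of groups overlapped, as in 46.5% of all genes tested. In the wider list of 26 fusion and adhesion genes 4 rose (15.4%, against 11.0% of all genes) and 6 fell (23.1%, against 14.1%), the caveolin gene Cav3 (0.38 ± 0.0569) among the rises and Kirrel (-1.21 ± 0.087) and the integrin gene Itga4 (-0.39 ± 0.105) among the falls. With the length and GC trend removed 9 rose and 3 fell, and with library size only 4 rose and 10 fell. The call of Itga4 was lost without KO-labelled replicate 1, under the effective-length offset and with the length and GC trend removed.

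Rises outnumbered falls among contractile genes. Of 72 listed sarcomere genes 70 passed the filter, with a median of 0.17. Of these 33 were higher (47.1%, against 11.0% of all genes) and 7 lower (10%, against 14.1%). Without KO-labelled replicate 2 these counts were 20 and 5. The list summed to 105184, 105323 and 114122 CPM in WT and to 113015 and 121441 CPM in KO-labelled libraries, so the sums overlapped. Lmod2, a nucleator of thin filaments (chr6:24597762-24605414, plus strand), was at 131, 130 and 133 CPM in the WT libraries against 188 and 203 CPM in the KO-labelled ones (0.58 ± 0.039, edgeR adjusted p 2.03e-11). Myoz2, a Z-disc protein, was at 72.5, 79.6 and 71.8 against 120 and 124 CPM (0.71 ± 0.0604). The stress-responsive Z-disc and I-band gene Ankrd23 rose by 0.72 ± 0.0987. The largest rise in the list was in the slow light chain gene Myl2, at 2.32, 3.18 and 2.61 CPM in WT and 6.42 and 4.46 CPM in KO-labelled libraries (1.00 ± 0.2). Among other troponin and light chain genes were Tnnt3 at 0.39, Tnnc1 at 0.29, Myl1 at 0.47 and Mylpf at 0.24. Without KO-labelled replicate 2 the calls of Tnnc1, Mylpf, Myh8 and Tpm2 were lost, and that of Mylpf also without WT replicate 2.

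The genes for the giant proteins and the myosin heavy chains did not move together. The embryonic heavy chain gene Myh3 had means of 16135 and 15971 CPM and was not called, nor was Acta1 (12222 and 13070 CPM). The titin gene Ttn (6478 and 5361 CPM) was not called either, but was with library size only, with no filter and with the 5 libraries alone. The slow heavy chain gene Myh7 fell (-0.52) and the perinatal Myh8 rose (0.25). These genes are clustered paralogs, which limits the assignment of counts. Neb, nebulin, was at 1877, 1929 and 1919 CPM in the WT libraries against 1492 and 1398 CPM in the KO-labelled ones (-0.4 ± 0.117, edgeR adjusted p 0.0118), and it lost its call in the DESeq2 test, with the length and GC trend removed and without KO-labelled replicate 2. Flnc, the muscle filamin gene, was at -0.22 ± 0.0743 and lost its call in 5 of 14 alternatives, among them those without KO-labelled replicate 1, KO-labelled replicate 2 or WT replicate 3. Of 35 genes for excitation-contraction coupling 18 rose (51.4%, against 11.0% of all genes) and 1 fell (2.86%, against 14.1%), with a median of 0.17. Both the effective-length offset and leaving out KO-labelled replicate 2 reduced the rises to 9. The calcium channel subunit gene Cacnb1 was at 268, 278 and 280 CPM in the WT libraries against 357 and 363 CPM in the KO-labelled ones (0.39 ± 0.0409). The fall was in the calcium pump gene Atp2a2 (-0.22).

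The 2 sarcomere genes called higher with the highest WT level whose promoter holds CAGCTG, an E-box of the kind that myogenic bHLH factors bind, were shown in the same way, with CAGCTG in capitals.
Mylpf (chr7:127211358-127211607, plus strand): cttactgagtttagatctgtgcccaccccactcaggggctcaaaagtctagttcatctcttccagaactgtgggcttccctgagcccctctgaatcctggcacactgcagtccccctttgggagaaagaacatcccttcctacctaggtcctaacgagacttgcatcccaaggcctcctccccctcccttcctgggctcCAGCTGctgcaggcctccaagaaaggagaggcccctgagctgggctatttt
Tpm2 (chr4:43523555-43523804, minus strand): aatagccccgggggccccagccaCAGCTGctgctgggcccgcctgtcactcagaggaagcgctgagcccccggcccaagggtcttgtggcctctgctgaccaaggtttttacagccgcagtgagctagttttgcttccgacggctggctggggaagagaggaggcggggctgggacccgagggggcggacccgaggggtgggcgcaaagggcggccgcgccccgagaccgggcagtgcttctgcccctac
CAGCTG was in 25 of 69 promoters of 57 matched sarcomere genes (36.2%) and in 9 of 27 promoters of 22 matched coupling genes (33.3%), against 13% of all promoters. In the mitosis list it was in 9 of 68 promoters (13.2%) and in the cytoskeleton list in 2 of 42 (4.76%). Mylpf encodes the fast regulatory light chain, with means of 7294 CPM in WT and 8615 CPM in KO-labelled libraries, and Tpm2 encodes beta tropomyosin, with 4472 and 5177 CPM.

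Many respiratory chain genes of the mitochondrial and the nuclear genome were called higher. Of 13 genes encoded in mitochondrial DNA 12 were called higher (92.3%, against 11.0% of all genes), with a median of 0.48, and all 13 values were positive. Their share of all counts was 4%, 4.77% and 4.33% in WT and 5.5% and 5.91% in KO-labelled libraries. These shares did not overlap, as in 46.5% of single genes tested. In the 6 myoblast libraries of both labels the share was 1.39% to 1.8%. mt-Nd4, a complex I subunit, was at 3409, 4203 and 3871 CPM in the WT libraries against 5159 and 5784 CPM in the KO-labelled ones (0.52 ± 0.0889, edgeR adjusted p 8.21e-05). mt-Co1, of cytochrome oxidase, was at 13077, 15585 and 14389 against 17453 and 19075 CPM (0.35 ± 0.0859), and lost its call without KO-labelled replicate 2. In both genes WT replicate 1 was the lowest and KO-labelled replicate 2 the highest library.

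The nuclear subunits had smaller median changes, a difference that was not tested, and the number called varied with the setting. Of 36 complex I subunits 23 were higher (63.9%, against 11.0% of all genes) and none lower (against 14.1%), with a median of 0.18. Of 44 subunits of complexes II to V 28 were higher (63.6%) and none lower, with a median of 0.16. Ndufb4 (0.37 ± 0.0615), Ndufs4 (0.34 ± 0.0549) and Cox7b (0.39 ± 0.0466) had among the largest rises. The muscle isoform gene Cox6a2 was at 58.8, 59.3 and 61.6 CPM in the WT libraries against 84.3 and 90 CPM in the KO-labelled ones (0.54 ± 0.0671). The rises in complex I numbered 13 with library size only, 14 with the effective-length offset and 11 without KO-labelled replicate 1, and those in complexes II to V numbered 14 with library size only, 18 with the 5 libraries alone and 17 without KO-labelled replicate 1. With the length and GC trend removed, 3 subunits of complexes II to V were lower. Among regulators of mitochondrial content 7 of 26 rose (26.9%, against 11.0% of all genes) and 3 fell (11.5%, against 14.1%). The rises numbered 4 without WT replicate 2 and with library size only and 13 with the length and GC trend removed, and 1 fall was left without KO-labelled replicate 1. Ppargc1a (20.8 and 23 CPM) and Tfam (50.6 and 52.7 CPM) were not called, the mitochondrial DNA polymerase gene Polg rose (0.28 ± 0.0564), and Esrrg (0.6 ± 0.121) rose while Esrrb (-0.58 ± 0.114) fell. Polg and Esrrb lost their calls under the effective-length offset.

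Of 35 genes tested around glutamate, the substrate of GLUD1, 4 rose (11.4%, against 11.0% of all genes) and 10 fell (28.6%, against 14.1%), with a median of -0.084. The median was -0.039 without KO-labelled replicate 1, -0.13 without KO-labelled replicate 2 and -0.010 with the length and GC trend removed. No rise was called under the effective-length offset and 1 without KO-labelled replicate 2, and with the length and GC trend removed 8 rose and 8 fell. The branched-chain aminotransferase genes went opposite ways. Bcat1, the cytosolic form, was at 6.31, 6.27 and 7.78 CPM in the WT libraries against 1.98 and 3.04 CPM in the KO-labelled ones (-1.44 ± 0.181), whereas Bcat2, the mitochondrial form, rose (0.28). Ornithine aminotransferase Oat (-0.59 ± 0.0826), the proline synthesis gene Aldh18a1 (-0.41) and the pyrimidine synthesis gene Cad (-0.52 ± 0.0769) fell. Glutamine synthetase Glul (95.2 and 95.7 CPM) was not called, and the cytosolic aspartate aminotransferase gene Got1 rose (0.18). Under the effective-length offset Bcat2, Cad and Got1 lost their calls, Got1 also without KO-labelled replicate 2.

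Targets of the amino acid response factor ATF4 and tRNA synthetases leaned lower, with a median of -0.2. Of 43 tested 22 fell (51.2%, against 14.1% of all genes) and 1 rose (2.33%, against 11.0%). Trib3 was at 11, 10.2 and 10.9 CPM in the WT libraries against 3.85 and 5.08 CPM in the KO-labelled ones (-1.26 ± 0.131). The cystine transporter gene Slc7a11 (-1.32 ± 0.242), the cytokine gene Gdf15 (-1.34 ± 0.176), the one-carbon gene Mthfd1l (-1.19 ± 0.101) and Pck2 (-0.86 ± 0.0976) fell. Atf4 itself (301 and 291 CPM) was not called, and Fgf21 rose (0.41), with a call that was lost under the effective-length offset and without KO-labelled replicate 2. Of 36 genes for cholesterol and fatty acid synthesis 16 fell (44.4%, against 14.1% of all genes) and 2 rose (5.56%, against 11.0%). Among the falls were Acaca (-0.59 ± 0.06), Fasn (-0.48) and Elovl6 (-0.87 ± 0.12). Under the effective-length offset 10 falls and no rise were called. Of 40 citric acid cycle and pyruvate genes 12 rose (30%, against 11.0% of all genes) and 8 fell (20%, against 14.1%). Pyruvate dehydrogenase Pdha1 (0.34) and the pyruvate carrier Mpc1 (0.35) were higher, Pdk3 (-0.56 ± 0.1) was lower, and this balance varied with the setting. There were 21 rises and 6 falls once the length and GC trend was removed, 7 and 8 with library size only, and 7 and 6 both under the effective-length offset and with the 5 libraries alone.

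In the myostatin, TGF-beta and BMP list 19 of 39 fell (48.7%, against 14.1% of all genes) and 2 rose (5.13%, against 11.0%), with a median of -0.28. Fstl1, a secreted follistatin-like protein, was at 29, 22.7 and 27.5 CPM in the WT libraries against 4.6 and 4.56 CPM in the KO-labelled ones (-2.53 ± 0.109, edgeR adjusted p 1.96e-15). The ligand gene Tgfb2 (-1.21) and the BMP antagonist Grem1 (-1.82 ± 0.263) fell, while myostatin Mstn (209 and 211 CPM) was not called. In the IGF list 9 of 19 fell (47.4%) and 1 rose (5.26%), or 5 and 6 with the length and GC trend removed, and 3 rose without KO-labelled replicate 1. Igfbp2 was at 77.3, 60.3 and 71.3 CPM in the WT libraries against 27.8 and 30.6 CPM in the KO-labelled ones (-1.25 ± 0.0944), the receptor gene Igf1r fell (-0.34), and Pappa2, a protease that releases IGF from its binding proteins, rose from 20.7, 22.1 and 21.3 CPM to 37.4 and 39.6 CPM (0.85 ± 0.0895). Without KO-labelled replicate 2 the falls in this list numbered 5, and Igf1r lost its call.

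The guanylate-binding proteins, interferon-induced GTPases, gave some of the steepest falls. The list they head summed to 802, 803 and 805 CPM in WT and to 397 and 416 CPM in KO-labelled libraries. Gbp6 was at 230, 225 and 227 CPM in the WT libraries against 31.2 and 37.7 CPM in the KO-labelled ones (-2.72 ± 0.0721), and Gbp4 was at 57.4, 57.9 and 57 against 14.1 and 14.2 CPM (-2.02 ± 0.0861). These paralogs can exchange counts. The peptide transporter genes Tap1 (-2.12 ± 0.227) and Tap2 (-1.63 ± 0.0752) fell as well. In all, 13 of 38 tested members fell (34.2%, against 14.1% of all genes) and 1, H2-K1 (0.37), rose (2.63%, against 11.0%). The call of H2-K1 was lost under the effective-length offset. Others, such as B2m (55.7 and 58.7 CPM) and Stat2 (32 and 32.9 CPM), were not called. The estrogen-responsive gene Greb1 was at 7.3, 5.88 and 6.79 CPM in the WT libraries against 0.749 and 0.472 CPM in the KO-labelled ones (-3.44 ± 0.226).

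The largest rises among called genes that reached a mean of 10 CPM were in genes of varied function. Pabpn1l, which encodes a poly(A)-binding protein known from oocytes, was at 5.41, 6.57 and 6.16 CPM in the WT libraries against 15.4 and 16.5 CPM in the KO-labelled ones (1.39 ± 0.116, edgeR adjusted p 8.23e-10). Il11ra1, the interleukin 11 receptor chain, was at 19.6, 19 and 20.1 against 38.4 and 36.8 CPM (0.94 ± 0.0648). In both genes the KO-labelled libraries lay above all WT libraries, where 46.5% of all genes tested had groups that did not overlap. Others were the germ cell transcription factor gene Sohlh2 (1.04 ± 0.0931), the hydrolase gene Cmbl (0.92 ± 0.0824) and the chloride channel family gene Clic5 (0.77 ± 0.0973). Hsp90b1, an endoplasmic reticulum chaperone, was at 896, 910 and 956 CPM in the WT libraries against 547 and 590 CPM in the KO-labelled ones, a fall of 0.70 ± 0.0482 on the log2 scale.

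Whether the 48 h difference stood apart from the other stages was tested as the 48 h effect minus the mean of the 24 h and 72 h effects. This test called 2674 genes, 17.7% of those tested, of which 1500 were more negative and 1174 more positive at 48 h. It called 2237 of the 3810 genes called at 48 h. In the mitosis list 40 of 76 genes were more negative at 48 h and none more positive, and at 24 h 33 members were higher in KO-labelled libraries and none lower, where 4.86% of all genes were called higher and 6.69% lower. In the sarcomere list 43 of 70 were more positive at 48 h and 3 more negative, and at 24 h 46 members were lower in KO-labelled libraries and 1 higher. Of 40 cytoskeleton genes 27 were more negative, of 43 matrix genes 21, and of 13 mitochondrially encoded genes 12 were more positive. The smallest adjusted p was that of Col4a1, with effects of -0.061 at 24 h, -1.5 at 48 h and 0.44 at 72 h. Ccnd1 followed, whose effect at 24 h was -0.018 (edgeR adjusted p 0.884), at 48 h -1.91 and at 72 h 0.42 (edgeR adjusted p 0.0028). Cd44, a hyaluronan receptor gene, had 148, 140 and 146 CPM in WT and 70.8 and 78.7 CPM in KO-labelled libraries at 48 h (-0.95 ± 0.0522), with effects of 0.13 at 24 h and 0.049 at 72 h.

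The levels along the course show where the 48 h libraries lay. Fn1 was at a mean of 642 CPM in WT myoblasts and 8.59 CPM in WT fused myotubes, with the WT libraries at 48 h (mean 74 CPM) and the KO-labelled ones (mean 16.9 CPM) in between. Pax7 went from 102 to 3.61 CPM in WT between 24 h and 72 h, and Lmod2 from 4.69 to 305 CPM. For these 3 genes the KO-labelled mean at 48 h was nearer to the WT level at 72 h than the WT mean at 48 h was. Mymx peaked at 48 h in WT, with 2.74 CPM at 24 h and 27.7 CPM at 72 h, and the KO-labelled libraries lay above that peak. mt-Nd4 likewise had 861 CPM at 24 h and 2698 CPM at 72 h in WT, below both groups at 48 h. Gbp6 took another course, at 49.7 CPM in WT myoblasts and 783 CPM in WT fused myotubes, and was lower in KO-labelled libraries at each stage, with effects of -2.94, -2.72 and -4.32.

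**Figure D4:**
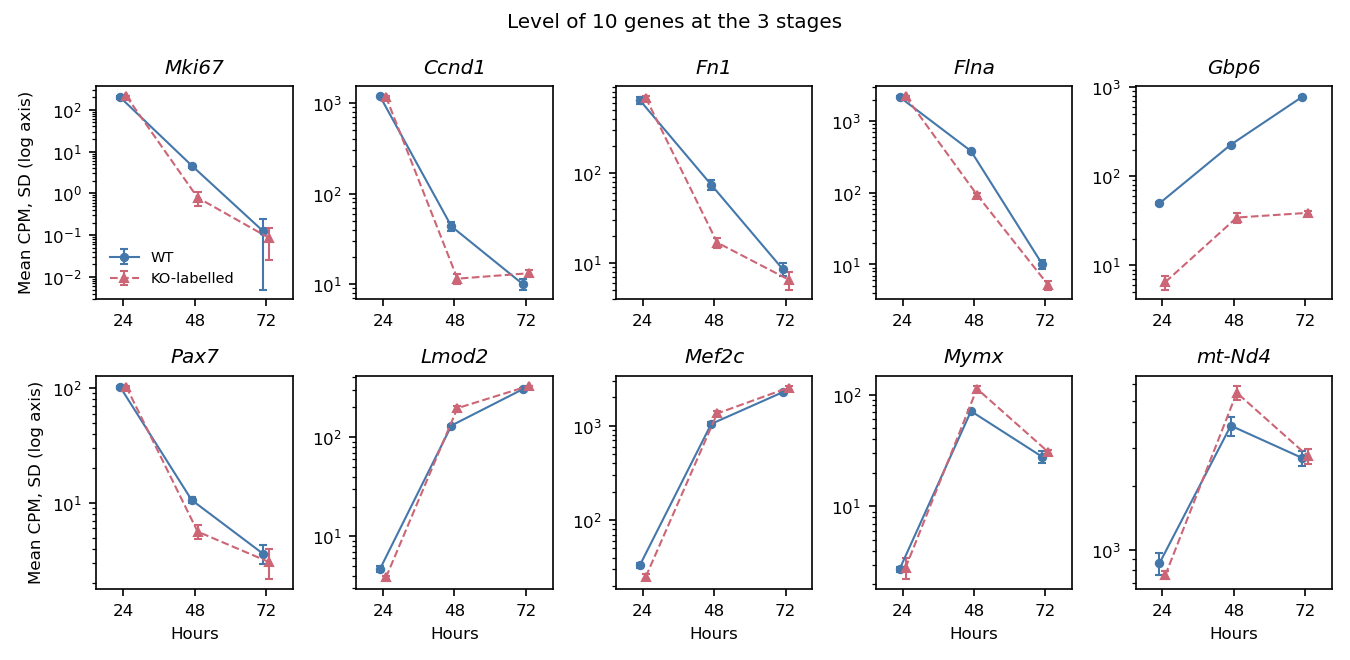
Mean CPM with SD (log axis, scaled per gene) of 10 genes in WT (circles, solid line) and KO-labelled (triangles, dashed line) libraries at 24, 48 and 72 h, with 3, 3 and 4 WT and 3, 2 and 4 KO-labelled libraries. For Fn1 and Pax7 the labels lie apart mainly at 48 h, while Gbp6 is lower in KO-labelled libraries at all 3 stages.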

How the data were processed

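Messenger RNA of 19 mouse libraries was measured, of which 5 are at 48 h. Per the submitters' processing notes, reads went through bcl2fastq 2.20, fastp 0.20.0 and kallisto 0.46.1 with GRCm38.p6, and edgeR 3.36 was used; their settings and strand are not given in the sources used here. The deposited files give, per the file headers, each transcript's estimated counts, TPM (scaled by the authors' run of kallisto), length and effective length. TPM served to weight effective lengths and to give the levels of Glud1 transcripts. Estimated counts were summed to 35598 genes with the GENCODE annotation of GRCm38, which matched 121018 of 121843 transcripts, and rounded.

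All 19 libraries were fitted in 6 groups with edgeR 4.0.16 (R 4.3.3): TMM, filterByExpr, quasi-likelihood test, Benjamini-Hochberg adjustment over all genes tested, threshold 0.05. The contrast was KO-labelled minus WT at 48 h, and p-values given without a tool come from this fit. Alternatives used DESeq2 1.42.0, other scalings, filters and offsets, a replicate block, and each library left out. The fits were tested on simulated data. No replicate pair agreed within sampling noise. The 48 h libraries held 19875856 to 29896572 estimated counts each, and precision also rests on the spread between libraries.

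The members and lists were chosen with earlier results of these data known. Genes were named by a rule: Glud1, the 12 largest rises and falls by fold among called genes reaching 10 CPM, the 6 largest each way by CPM, the 4 most changed called members of each list with the lineage and fusion factors and Mki67, and the 6 with the smallest p against the other stages. Not all of them are printed, and some are not reported here. A further 49 of the 150 genes given values, list members that help describe a list, such as those not called, were chosen after their values were seen. Promoters are from the RefSeq table, with symbols matched.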

Additional observations from a re-analysis of the deposited data

Results flagged for a closer look

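Of the 150 genes given values in the text, 113 had a 48 h effect that departed from the mean of their 24 h and 72 h effects at an adjusted p under 0.05 in edgeR's test of that difference. For 69 the 48 h effect was the more negative and for 44 the more positive. The values are that difference on the log2 scale, so they depend on all 3 stages and not only on 48 h. Over all genes tested the same test called 17.7%. Many of the 150 were chosen by their 48 h values, some by this same test and 49 after values were seen. A larger share among them was therefore built in.

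For mitosis genes the difference was -3.21 for Knl1, -2.47 for Top2a, -2.44 for Cenpe, -2.24 for Mki67, -1.42 for Ccnb1, -0.84 for Cdk1, -0.60 for Ncapd2 and -0.52 for Ect2. For genes of cycle entry and replication it was -2.12 for Ccnd1, -1.29 for Lig1, -0.95 for Mcm3, -0.73 for Cdk6, -0.72 for Mcm6, -0.56 for Ccnd2, -0.50 for Cdk4, 0.34 for Cdkn2b and 0.17 for Cdkn1a.

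For matrix genes it was -2.80 for Tnc, -2.10 for Col8a1, -1.97 for Fn1, -1.69 for Col4a1, -1.65 for Lox, -1.45 for Lamb1, -1.29 for Thbs1 and -0.38 for Hspg2. For cytoskeleton genes and their targets it was -1.73 for Ccn2, -1.54 for Flna, -1.23 for Myl9, -0.92 for Ccn1, -0.87 for Actg1, -0.72 for Actb, -0.61 for Vim, -0.51 for Myh9 and -0.48 for Acta2. For genes of adhesion and fusion it was 1.05 for Itgam, -1.04 for Cd44, -1.04 for Kirrel, 0.59 for Mymx, 0.50 for Mymk, 0.42 for Cav3 and -0.38 for Itga4.

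For lineage and bHLH-related factors it was -0.87 for Hes1, -0.83 for Pax7, -0.72 for Snai2, -0.66 for Id3, 0.49 for Mef2c, 0.39 for Tead4, -0.34 for Myod1, 0.31 for Myog, -0.30 for Id2 and 0.23 for Mef2a. Mef2a and Myog had positive values without being higher at 48 h: the 48 h effect of Mef2a was -0.42 against -0.77 at 24 h and -0.54 at 72 h. For contractile and calcium-handling genes it was 0.96 for Ankrd23, 0.67 for Lmod2, 0.67 for Myoz2, 0.63 for Tnnt3, 0.59 for Tnnc1, 0.57 for Myl1, 0.52 for Myh3, 0.51 for Mylpf, 0.46 for Cacnb1, 0.44 for Acta1 and 0.22 for Tpm2. Among them Acta1 and Myh3 were not called at 48 h itself, and their effects at 24 h were -0.78 and -0.92.

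For respiratory chain and pyruvate genes it was 0.76 for Cox6a2, -0.70 for Pdk3, 0.59 for mt-Nd4, 0.52 for mt-Co1, 0.34 for Cox7b, 0.32 for Ndufb4, 0.30 for Mpc1, 0.29 for Pdha1 and 0.24 for Ndufs4. For amino acid genes and targets of ATF4 it was -1.10 for Mthfd1l, -0.98 for Gdf15, -0.86 for Pck2, -0.78 for Slc7a11, -0.66 for Bcat1, -0.65 for Oat, 0.63 for Fgf21, -0.53 for Trib3, -0.43 for Aldh18a1, -0.40 for Cad, 0.32 for Got1 and 0.26 for Bcat2. For lipid, sugar and other metabolism it was -1.58 for Fabp5, -1.06 for Car3, -1.06 for Elovl6, -0.74 for Pygb, 0.73 for Pgam2, 0.62 for Acsl6, -0.53 for Acaca, 0.40 for Pfkm, -0.38 for Fasn and 0.29 for Acaa2.

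For signalling genes it was -2.47 for Fstl1, -1.30 for Grem1, 1.14 for Pappa2, -0.96 for Dusp4, -0.86 for Igfbp2, -0.79 for Sdc3, 0.77 for Il11ra1, -0.77 for Lef1, -0.61 for Cxcr4, -0.56 for Tgfb2, 0.36 for Mstn and -0.31 for Lrp5. For immune-related genes it was -1.47 for Tap1, 1.07 for Gbp4, 0.91 for Gbp6 and 0.57 for H2-K1, where the positive values of Gbp4 and Gbp6 mean a fall at 48 h that was smaller than the mean of those at 24 h and 72 h. For the rest it was 1.63 for Pabpn1l, 0.89 for Cmbl, -0.57 for Hsp90b1 and -0.20 for Rpl3.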

How the results depend on the processing

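Of 14 alternatives, the offset for effective transcript length gave the lowest counts. It left 2149 calls at 48 h against 3810, with 904 higher and 1245 lower, and 1386 against 2674 for the difference from the other stages. The higher genes numbered 3181 with the GC and length trend removed, 1039 with library size only, and between 1088 and 1723 when 1 of the 5 libraries was left out, against 1671. Glud1 was called at -0.31 with the effective-length offset and at -0.14 with library size only. Of 220 named genes 187 kept direction and side of the threshold under the effective-length offset, 192 and 194 without KO-labelled replicate 2 or 1, and 206 or more in each other alternative that held all of them. The called gene Timeless turned from -1.02 to 0.020 under the effective-length offset. The other changes of sign were in genes that were not called. Myog turned to 0.006 with DESeq2's size factors or its test, Myh3 to 0.13 with the GC and length trend removed, and Glul to -0.049, Mstn to -0.037 and Stat2 to -0.018 with library size only. Leaving out 1 library gave -0.088 to 0.067 for Myog, -0.083 to 0.075 for Myh3, -0.079 to 0.092 for Glul, -0.031 to 0.071 for Mstn, -0.013 to 0.088 for Stat2, -0.033 to 0.22 for Acta1 and -0.14 to 0.007 for Pcna. The cause was not tested. Replicate numbers were shared by 2 pairs only. The deviations of same-numbered libraries correlated at 0.131 and -0.110 across 8669 genes, and those of WT replicate 3 and KO-labelled replicate 2 at 0.273. The deviations of the 2 KO-labelled libraries mirror each other, so these values cannot show whether the numbers pair libraries. With a replicate block 3667 genes were called, 1 named gene (Col6a1) lost its call, Myog was at 0.020 and Myh3 at 0.021. Precision was limited by the 2 KO-labelled libraries, and low genes such as those of mitosis rest on a few CPM.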

Other observations

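Further gene groups, not described above, changed in part. Among 41 genes of glycolysis, glycogen and glucose transport 12 were higher and 2 lower, beside 11.0% and 14.1% of all genes, and their median was 0.013. Over the alternatives the median ran from -0.044 with library size only to 0.11 with the GC and length trend removed. There were 5 rises without KO-labelled replicate 2 and 4 falls without WT replicate 2. Pgam2, the muscle phosphoglycerate mutase gene, stood at 525, 487 and 528 CPM in WT and 689 and 714 CPM in KO-labelled libraries (0.45 ± 0.0602), and the muscle phosphofructokinase gene Pfkm rose too (0.30). Pygb, the brain-type glycogen phosphorylase gene, fell (-0.70 ± 0.0918). Of 21 genes for creatine, adenylate and oxygen buffering 9 rose, against 4 without KO-labelled replicate 2, and the carbonic anhydrase gene Car3 fell, with 298, 216 and 236 CPM in WT and 127 and 156 CPM in KO-labelled libraries (-0.82 ± 0.0946). For fatty acid use 6 of 42 genes rose and 5 fell, or 14 and 3 with the GC and length trend removed. These included rises of the acyl-CoA synthetase gene Acsl6 (0.58 ± 0.0499) and the thiolase gene Acaa2 (0.51) and a fall of the fatty acid binding protein gene Fabp5 (-1.48 ± 0.133). In that list the rises numbered 10 without WT replicate 1 and the falls 2 and 3 without KO-labelled replicate 1 or 2. Of 77 cytosolic ribosomal protein genes 13 rose. Their median was 0.073, from 0.040 without WT replicate 3 to 0.13 without WT replicate 1 and 0.011 with the GC and length trend removed. The rises numbered 1 when KO-labelled replicate 1 was left out, 8 for KO-labelled replicate 2, 4 for WT replicate 3 and 24 for WT replicate 1. The member that fell was Rpl3 (-0.21).

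Over all genes 14.1% were called lower and 11.0% higher. In the FGF, HGF and ERK list 11 of 29 fell and 5 rose, the rises numbering 3 or 1 when KO-labelled replicate 1 or 2 was left out. Sdc3, a heparan sulfate proteoglycan gene, stood at 42.5, 35.9 and 40.2 CPM in WT and 20 and 21.4 CPM in KO-labelled libraries (-0.93 ± 0.08), and the ERK phosphatase gene Dusp4 fell (-1.17 ± 0.129). In the Wnt list 6 of 33 fell and 1 rose, a share of falls near that of all genes, with Sost (-3.40 ± 0.389), a secreted Wnt inhibitor, the transcription factor gene Lef1 (-1.05 ± 0.122) and the co-receptor gene Lrp5 (-0.53) among the falls. There were 4 falls and 7 rises with the GC and length trend removed, and no rise without KO-labelled replicate 1 or WT replicate 1. In the Notch list 8 of 24 fell and 1 rose, against 3 and 1 under the effective-length offset, 12 and 1 with library size only and 5 and 4 with the GC and length trend removed. In a list of steroid receptors and targets 8 of 23 fell and 3 rose, against 6 and 0 without KO-labelled replicate 2 and 7 and 7 with the GC and length trend removed. Of 16 satellite cell genes 5 fell and none rose, and without KO-labelled replicate 2 the falls numbered 3. The chemokine receptor gene Cxcr4 (-0.72 ± 0.131) was among them. In each gene named with its libraries here the WT and KO-labelled values did not overlap, as in 46.5% of all genes tested.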
